A study of Mus musculus with 8 samples.

Results

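Liver RNA was sequenced from mice labelled Ube3a TG homo (TG), which overexpress Ube3a, and from wild-type (WT) mice. All the mice had the C57BL/6 background and had eaten a diet with 42% fat for 8 weeks. The comparison rests on 4 of the 8 libraries of the study, 2 TG and 2 WT, and on all 13774 genes in the table that holds them. It addressed which transcripts differ when the liver of a fat-fed mouse carries extra Ube3a. The labels do not give the promoter or cell type that drives the transgene, the number of transgenic lines, or the age or sex of the mice. Nor do they state that libraries of 1 group are separate animals, and the p-values therefore cover only the variation among these samples. Between libraries of a group, the chi-square per degree of freedom of the reads was 80.7 in WT and 385 in TG. Sampling of reads alone gives about 1. No group was kept on an ordinary diet, so the diet itself is common to every library compared here.

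UBE3A is a ubiquitin ligase of the HECT class, an enzyme that takes ubiquitin from a conjugating enzyme and places it on a target protein, often as a mark for breakdown by the proteasome. It is best known from neurons, where the maternal allele is the one expressed and its loss causes Angelman syndrome. In liver, fat from the diet is stored as triglyceride in droplets coated with perilipins and CIDE proteins, and the nuclear receptor PPAR-gamma raises the genes for this storage. The title of the study names MLL4, a histone methyltransferase encoded by Kmt2d that acts as a coactivator of such genes, as a target of UBE3A.

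Recovered reads per library numbered 45672650 and 44193275 in WT and 46940845 and 47928229 in TG, so depth differed little between the groups. Values are normalised reads per gene, and every value pair below gives replicate 1 before replicate 2. The liver identity of the samples was plain from 14 measured hepatocyte markers, whose summed level was 5389823 to 6122128 in WT and 6456531 to 6769839 in TG. Over the 10979 genes with a mean of at least 100, the median absolute log2 difference was 0.157 between the WT libraries and 0.195 between the TG libraries. Across groups it ran from 0.164, for WT replicate 2 against TG replicate 2, to 0.246, for WT replicate 1 against TG replicate 1. TG replicate 2 thus stood closer to WT replicate 2 than to its own partner, and several gene groups below are given for each TG library by itself.

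Ube3a (ENSMUSG00000025326; chromosome 7, 59228750 to 59311536, + strand, GRCm38) checks the genotype labels. It had 1187 and 1359 normalised reads in WT and 5991 and 5938 in TG. The TG libraries lay close together and far above both WT libraries, at 4.69 times the WT mean. The log2 fold change was 2.23 (SE 0.13). limma, the main test, gave an adjusted p of 0.0586 and DESeq2 one of 5e-34. C230091D08Rik, a transcript annotated over the same locus, stood at 527 and 621 in WT and 2745 and 2703 in TG (the strand setting of the counting is not given in the sources used here), so reads of the pair cannot be told apart. The neighbours of Ube3a on chromosome 7 did not share the difference in size. Of 14 listed, 9 were measured, 5 of them with both TG libraries above both WT libraries and 2 with both below, with a median log2 fold change of 0.18. Herc2, the large HECT gene nearby, had 2221 and 2013 in WT and 2630.2 and 2416 in TG (log2 fold change 0.25, SE 0.12).

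With 2 libraries a group, limma called no gene at an adjusted p under 0.05 (0 of 13774, or 0.0%, in either direction). At an unadjusted p under 0.05 it held 710 genes higher in TG (5.15%) and 546 lower (3.96%). That split became 438 higher and 687 lower when libraries were scaled by their total without the 20 most abundant genes. edgeR and limma-voom also called 0. DESeq2, which shares the spread among genes in another way, called 96 genes higher (0.711% of the 13506 it tested) and 90 lower (0.666%). In each of those 186 genes the groups did not overlap. Over all 13774 genes, both TG libraries lay above both WT libraries in 3004 (21.8%) and below in 2981 (21.6%), so a gene group is read against about these shares. With the libraries scaled to equal totals these counts were 2156 and 3878. The median log2 fold change over all genes was 0.00. In the text below, a gene is called where DESeq2 gave an adjusted p under 0.05, and higher or lower describes its level and not a limma call. DESeq2 called 70 genes without WT replicate 1, 82 without WT replicate 2, 194 without TG replicate 1 and 545 without TG replicate 2. Of the 186 genes, 34 were called in all 4 of these fits.

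**Figure D1:**
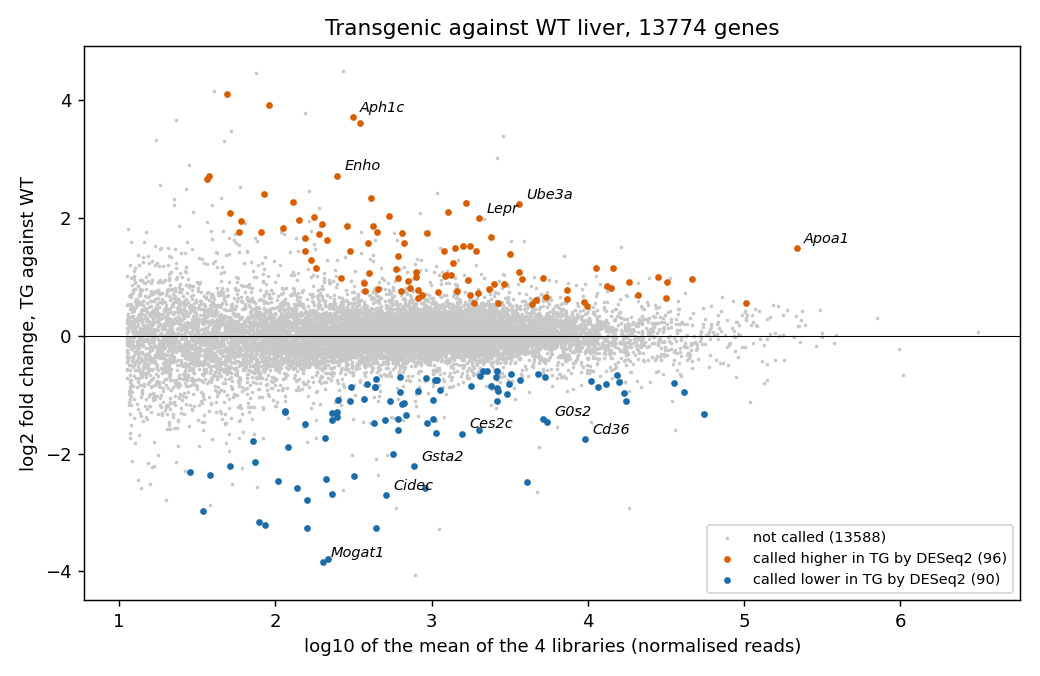
Log2 fold change of TG against WT (vertical axis) by log10 of the mean normalised reads of the 4 libraries (horizontal axis) for 13774 genes; orange and blue points are the 96 and 90 genes called higher and lower by DESeq2, and grey points are the others. Ube3a stands at 2.23, and the called genes spread over the whole range of expression.

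Markers of endothelial and Kupffer cells were mostly lower in TG, with none called. Of 20 endothelial markers, 18 were lower in TG and 16 had both TG libraries below both WT libraries (median log2 fold change −0.25). Their summed level was 30156 to 30975 in WT and 25713 to 25755 in TG, with none called and none at 0. Flt4, a receptor of sinusoidal and lymphatic endothelium, had 1392 and 1409.6 in WT and 1044 and 1011 in TG (log2 fold change −0.45, SE 0.11). Of 21 Kupffer cell and macrophage markers, 19 were lower and 12 lay below both WT libraries, with medians of −0.52 in TG replicate 1 and −0.10 in replicate 2. Their summed level was 45521 to 49027 in WT and 31913 to 41530 in TG. Cd5l, secreted by Kupffer cells, had 8840 and 7833 in WT and 4317 and 6018 in TG. Hepatocyte markers went the other way, with 13 of 14 higher and 9 above both WT libraries (median 0.32). In bulk liver RNA, fewer cells of a type and less RNA per cell cannot be told apart, and the part of these shifts in the results below was not tested.

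Stellate and fibroblast markers showed no shared direction, with 5 of 18 above and 2 below both WT libraries and summed levels of 27508 to 28449 in WT and 25364 to 34056 in TG. Lymphocyte markers were few in reads, summing to 1002 to 1082 in WT and 753 to 1026 in TG over 12 of 14 measured genes. Of 7 neutrophil markers 3 were measured, of 7 adipocyte markers 2, of 7 erythroid markers 1 and of 10 pancreas and muscle markers 3. Adipoq, Plin1 and Lep, which define fat cells, were not among the 13774 genes by these names. Nor were Hba-a1, Hba-a2, Hbb-bs and Hbb-bt, the globins of red cells, or Acta1 and Ckm of muscle. The lowest mean of a gene in the table was 11.2.

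The clearest single-gene differences were ranked by limma's p among genes with a mean of at least 100, a log2 fold change of at least 1 in size and no overlap between the groups. There were 76 such genes higher in TG and 78 lower, and the first 15 on each side are counted here, most of them with their values. All 30 were called by DESeq2, and limma gave them adjusted p-values of 0.0586 to 0.182. On the higher side 14 of the 15, and on the lower side 9, stayed called by DESeq2 whichever library was left out.

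Of the higher 15, 4 encode receptors described first. Avpr1a, the vasopressin receptor through which that hormone mobilises hepatic glucose, had 206 and 213 in WT and 951 and 775 in TG. Its TG libraries were 4.12 times WT on average (log2 fold change 2.03, SE 0.16; DESeq2 adjusted p = 6.75e-15). Lepr, the leptin receptor, had 1002 and 648 in WT and 3383 and 3053 in TG (DESeq2 adjusted p = 2.95e-10). S1pr5, a receptor for sphingosine 1-phosphate, had 335 and 258 in WT against 1086 and 892 in TG. Robo1, the receptor for Slit guidance proteins, had 85 and 90.9 in WT against 283 and 304 in TG. In each of these 4 receptor genes the TG libraries lay near each other and above both WT libraries.

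Secreted proteins formed a second set among the higher genes. Enho encodes adropin, a liver peptide linked to fat and glucose balance, and had 65 and 60.6 in WT and 314 and 559 in TG (log2 fold change 2.72, SE 0.31; DESeq2 adjusted p = 3.07e-10). The 2 WT values were nearly equal, while the TG values differed from each other but stayed well above them. Serpina7, the thyroxine-binding globulin of plasma, had 377 and 365 in WT and 848 and 786 in TG. Serpina7 was the member of the higher 15 that lost its DESeq2 call in some fits, staying called in 2 of the 4 that leave out a library.

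Membrane and enzyme genes made up the rest of the higher 15. Aph1b and Aph1c, neighbouring paralogs on chromosome 9 that encode a subunit of the gamma-secretase protease, were both higher. Aph1b had 70 and 68.7 in WT and 263 and 309 in TG, and Aph1c had 59 and 31.3 in WT and 507 and 654 in TG. Aph1c had the largest log2 fold change of the 15, 3.71 (SE 0.35; DESeq2 adjusted p = 2.47e-19), although near-identical copies can share reads. Acp1, the low molecular weight tyrosine phosphatase, had 624 and 663 in WT and 1609.9 and 1887 in TG. Slc3a1, the heavy chain of the cystine transporter, had 405 and 443 in WT against 1189 and 1688 in TG, and the sialyltransferase gene St3gal6 118 and 129 in WT against 399.6 and 508 in TG. Tmem218, a protein of the primary cilium, and the zinc finger gene Zfp949 completed the set. Tmem218 had 52 and 36.4 in WT and 237 and 194 in TG, and Zfp949 had 396 and 284 in WT and 1009.6 and 983 in TG. The choice of these genes fixed that their groups do not overlap, and the plot of them by library describes how far the libraries of a group lay apart, Aph1c and Lepr being examples where the WT libraries differed.

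**Figure D2:**
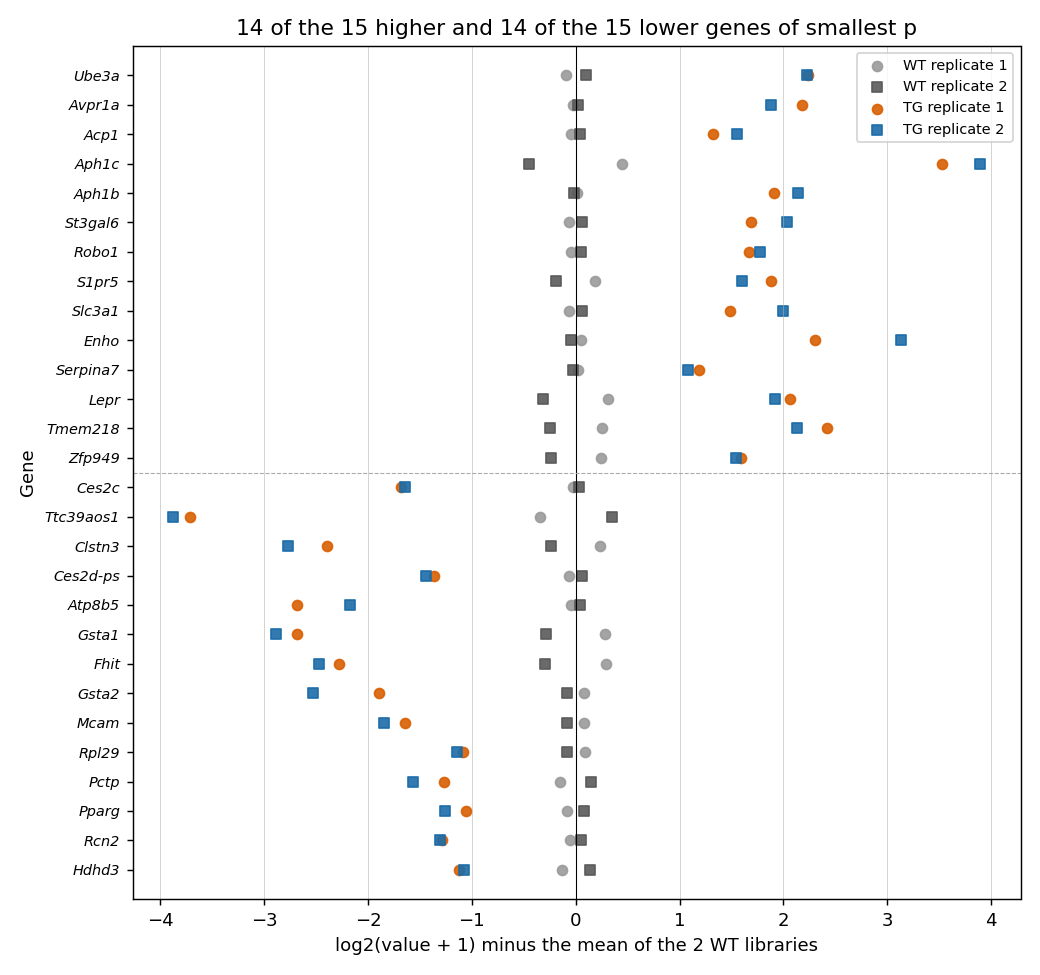
Log2(value + 1) of each library minus the mean of the 2 WT libraries (horizontal axis) for 14 of the 15 higher genes (above the dashed line) and 14 of the 15 lower genes (below it); grey symbols are WT and coloured symbols TG replicates 1 and 2. Aph1c, with log2 fold change 3.71, and Ttc39aos1, at −3.80, stand farthest from 0.

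The lower 15 held 2 pairs of related genes. Ces2c, a carboxylesterase that hydrolyses esters of drugs and acylglycerols, had 2334 and 2433 in WT and 743 and 764 in TG, with the smallest standard error of the 15 (log2 fold change −1.66, SE 0.11; DESeq2 adjusted p = 2.01e-19). Its neighbour Ces2d-ps, annotated as a pseudogene, had 1423 and 1558 in WT and 577 and 547 in TG, and their close sequences may share reads. Gsta1 and Gsta2 are glutathione transferases that detoxify electrophiles. Gsta1 had 334 and 224 in WT and 41.9 and 36.1 in TG, and Gsta2 1333 and 1190.3 in WT and 338 and 217 in TG. Gsta1 was thus 7.16 times lower and Gsta2 4.54 times lower, and the same uncertainty of paralogs applies.

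Of the lower 15, 3 others act on lipids. Pparg had 840 and 941 in WT and 427 and 371 in TG, with both TG libraries well below both WT libraries. Pctp, a carrier of phosphatidylcholine, had 6728 and 8261 in WT and 3092 and 2522 in TG (log2 fold change −1.42, SE 0.17; DESeq2 adjusted p = 2.73e-08). Atp8b5, a member of the phospholipid flippase family, had 346 and 368 in WT and only 54.6 and 78.1 in TG. Among these, Atp8b5 and Pctp stayed called by DESeq2 in all 4 fits that leave out a library, and Pparg in 2.

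The other lower genes have varied roles. Clstn3, a calsyntenin of the cadherin family, had 1812 and 1305 in WT and 291 and 225 in TG, a level 6.03 times lower. Ttc39aos1, a noncoding transcript antisense to Ttc39a, had 311 and 504 in WT and 29.2 and 26 in TG. Ttc39a itself, named after its values were seen, had 186 and 398 in WT and 21.4 and 35.1 in TG, and without strand the reads of the pair cannot be told apart. Fhit, a diadenosine triphosphate hydrolase, had 646 and 430.4 in WT against 108 and 94.2 in TG, and Mcam, the adhesion molecule CD146 found on endothelium, 341 and 304 in WT against 102 and 89.1 in TG. Rpl29, a ribosomal protein gene, had 3790 and 3355 in WT and 1681 and 1619 in TG. The calcium-binding protein gene Rcn2 was at 143 and 141 in TG from 338 and 365 in WT, and Hdhd3, a hydrolase-like gene, at 642 and 661 from 1271 and 1533. Mcam was lower, as most endothelial markers above were, though its log2 fold change was −1.74 and their median −0.25. The part of these markers in its level was not tested.

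Genes of lipid droplets were lower in TG as a group. Of 18 measured members of the list of droplet coats and lipolysis, 15 were lower, and in 11 both TG libraries lay below both WT libraries. None lay above. The median log2 fold change was −0.45, and by library it was −0.85 in TG replicate 1 and −0.24 in replicate 2. DESeq2 called 2. Cidec, which fuses small droplets into large ones, had 595 and 1187 in WT and 88.7 and 184 in TG (log2 fold change −2.71, SE 0.51; DESeq2 adjusted p = 1.67e-06). G0s2, an inhibitor of the lipase ATGL, had 8732 and 7311 in WT and 2355 and 3589 in TG (log2 fold change −1.46, SE 0.24; DESeq2 adjusted p = 2.05e-05). In both genes TG replicate 1 was the lower of the pair.

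None of the perilipins was called. Plin2, the main perilipin of hepatocyte droplets, had 34316 and 28639 in WT and 14607 and 22565 in TG, without overlap but with a DESeq2 adjusted p of 0.178. Plin4 had 346 and 1315 in WT and 202 and 334 in TG, where TG replicate 2 lay only just below the lower WT value. Fitm1, which partitions triglyceride into droplets, had 1566 and 2312 in WT and 78.9 and 482 in TG, the most negative log2 fold change of the list (−3.28, SE 1.02), yet a spread between the TG libraries that left its DESeq2 adjusted p at 0.326. Among the lipases, Pnpla2 and Lipe were nearer to WT, although Lipe, like the lipase gene Mgll, lay below both WT libraries without overlap. Pnpla2, encoding ATGL, had 3232 and 3389 in WT and 2077 and 3620.0 in TG, and Lipe, the hormone-sensitive lipase, 729 and 663 in WT and 589.6 and 658 in TG. Pnpla3 stood apart, with 2614 and 2573 in WT but 27835 in TG replicate 1 and 796 in replicate 2.

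Genes of fatty acid uptake did not stand far from all genes by count. Of 18 members, 12 were lower, 5 (27.8%) without overlap, 3 (16.7%) lay above both WT libraries, and the median was −0.17. Besides Pparg, DESeq2 called Cd36, the fatty acid translocase of the cell surface, at 15303 and 13628 in WT and 2711 and 6747 in TG (log2 fold change −1.76, SE 0.47; DESeq2 adjusted p = 0.0074). Fabp1, the abundant fatty acid binding protein of hepatocytes, had 223755 and 182989 in WT and 120736 and 193749.8 in TG, with overlap. Fabp4 had 430 and 410.2 in WT and 307 and 339 in TG. On the other side, Fabp5 went from 355 and 211 in WT to 10133 and 816 in TG, and Acsl3, an acyl-CoA synthetase, from 1794 and 1788 to 5602 and 2408.

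Enzymes that assemble triglyceride did not move as one. Among 15 measured members 6 lay below and 2 above both WT libraries, with a median of −0.19. Mogat1, which acylates monoacylglycerol, had 359 and 383 in WT and only 11.7 and 52.1 in TG (log2 fold change −3.84, SE 0.72; DESeq2 adjusted p = 6.81e-07). Agpat2, an acyltransferase of the glycerol phosphate route, had 11617 and 14717 in WT and 7933 and 7430.3 in TG (DESeq2 adjusted p = 0.0105). Dgat2, which carries out the last step for most hepatic triglyceride, had 52351 and 43906 in WT and 52046 and 44220.0 in TG, a log2 fold change of 0.00 (SE 0.21). Lpin1, a phosphatidate phosphatase and coactivator, was higher with 13310.1 and 16118 in TG and 5118 and 10331 in WT. Mogat1 and Cidec were called by DESeq2 in all 4 fits without a library, G0s2 in 3, Cd36 and Pparg in 2, and Agpat2 in 1.

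**Figure D3:**
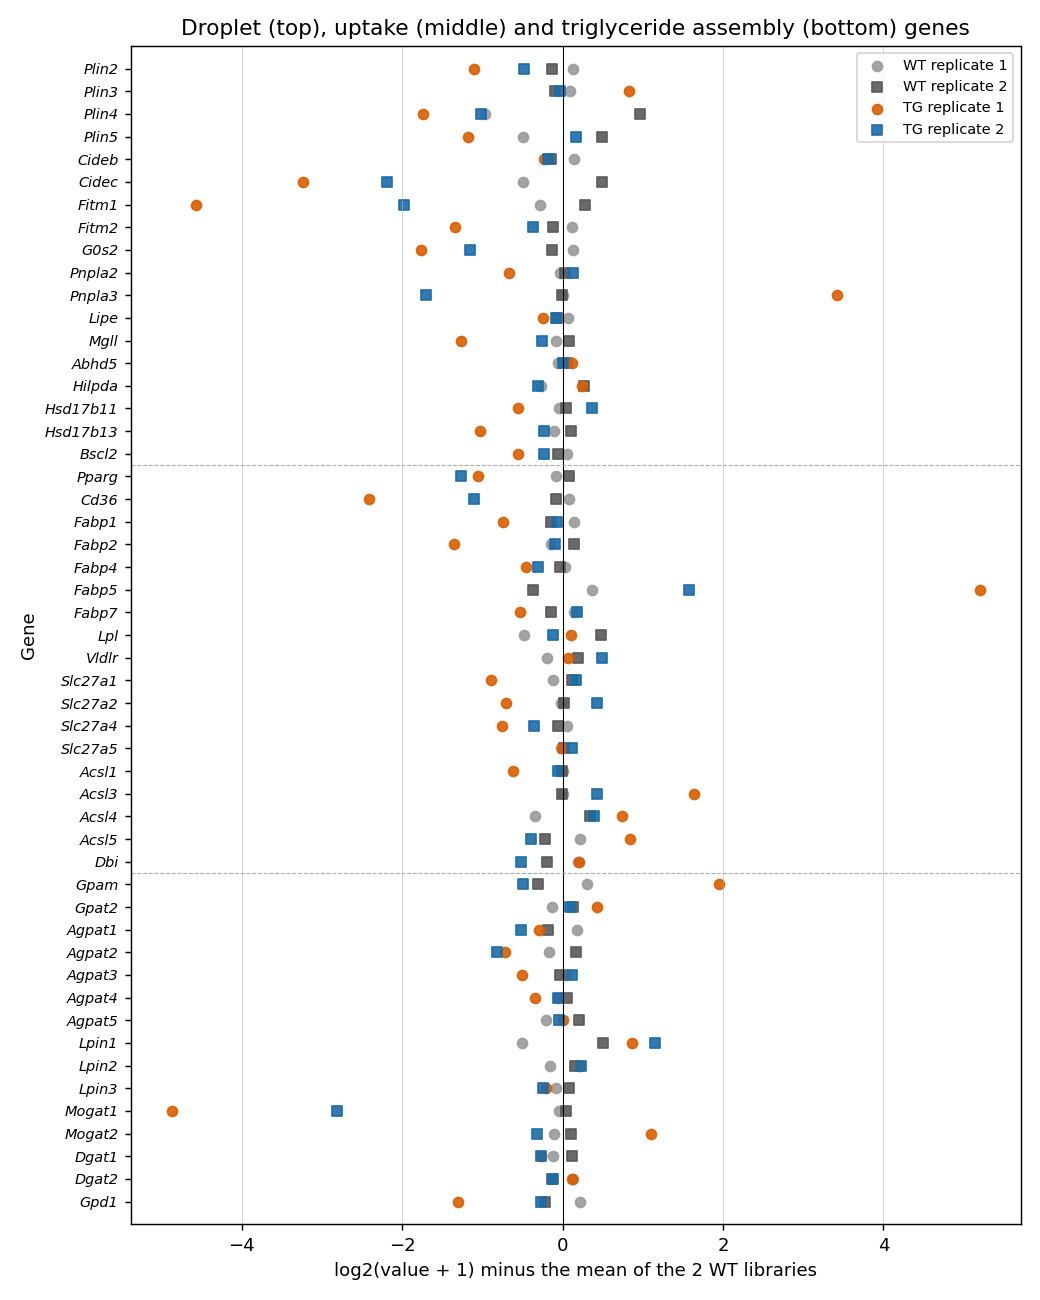
Log2(value + 1) of each library minus the mean of the 2 WT libraries (horizontal axis) for droplet genes (top), uptake genes (middle) and triglyceride assembly genes (bottom); grey symbols are WT, coloured symbols TG. Cidec, G0s2, Pparg, Cd36 and Mogat1 lie left of both WT libraries in both TG libraries, while Pnpla3, Fabp5 and Gpam stand far to the right in TG replicate 1.

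Several metabolic lists had opposite or unequal values in the 2 TG libraries, so their combined medians describe neither. The median of the 23 fatty acid synthesis genes was 0.95 in TG replicate 1 and −0.49 in replicate 2. Fasn, the fatty acid synthase, had 48279 and 53090.1 in WT, 211676 in TG replicate 1 and 27493 in replicate 2. Acly, which supplies cytosolic acetyl-CoA, had 19429 and 10642 in WT with 96582 and 8254 in TG. In both genes the WT values lay between the TG values. Elovl2, an elongase of polyunsaturated fatty acids, was the member that DESeq2 called, at 19429 and 25613 in WT and 43239 and 41025 in TG (adjusted p = 0.00233), and here the TG libraries were alike.

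The 26 cholesterol synthesis genes had medians of 1.21 in TG replicate 1 and 0.02 in replicate 2. Sqle, squalene epoxidase, had 180 and 124 in WT but 2908 in TG replicate 1 and 140.2 in replicate 2. Hsd17b7, a ketoreductase late in the pathway, was high in both, at 3703 and 2693 against 1789 and 1978 in WT (DESeq2 adjusted p = 0.0722). Of the 26, 10 (38.5%) lay above and 1 below both WT libraries, and none was called.

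Fatty acid oxidation and PPAR-alpha target genes were low in TG replicate 1 and, by their medians, near WT in replicate 2. The 25 oxidation genes had medians of −0.88 and 0.08, and the 18 PPAR-alpha targets −1.39 and 0.10. In 8 (32%) of the oxidation genes and 6 (33.3%) of the targets both TG libraries lay below both WT libraries, and none lay above. Cyp4a14, a fatty acid hydroxylase, had 64206 and 48135 in WT, 5114 in TG replicate 1 and 97989.7 in replicate 2. Vnn1, a pantetheinase induced by PPAR-alpha, had 6365 and 6692 in WT, 193 in replicate 1 and 5558 in replicate 2. Acaa1b, a thiolase of peroxisomes, had 150271 and 144035 in WT and 46519 and 98220.1 in TG, without overlap. No gene of either list was called.

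Immediate early genes reversed this order, with medians of −0.35 in TG replicate 1 and 1.08 in replicate 2. Egr1, an early growth response factor, had 2364 and 2589.7 in WT, 287 in replicate 1 and 16509 in replicate 2. Fos had 191 and 154 in WT with 58.5 and 2724 in TG. The labels give no time or order of tissue collection. The largest differences between the TG libraries among genes with a mean of at least 1000 were those of Serpina3c, Chrna4, Egr1, Pnpla3, Cyp2c39 and Vnn1. Serpina3c, a serine protease inhibitor, also differed between the WT libraries, at 5673 and 54.6 there and 34.1 and 14225 in TG. Cyp2c39 did so as well, at 794 and 14035 in WT and 688 and 22839 in TG. Chrna4, a nicotinic receptor subunit, was high in 1 library alone, at 160 and 33.3 in WT and 10288 and 34.1 in TG.

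**Figure D4:**
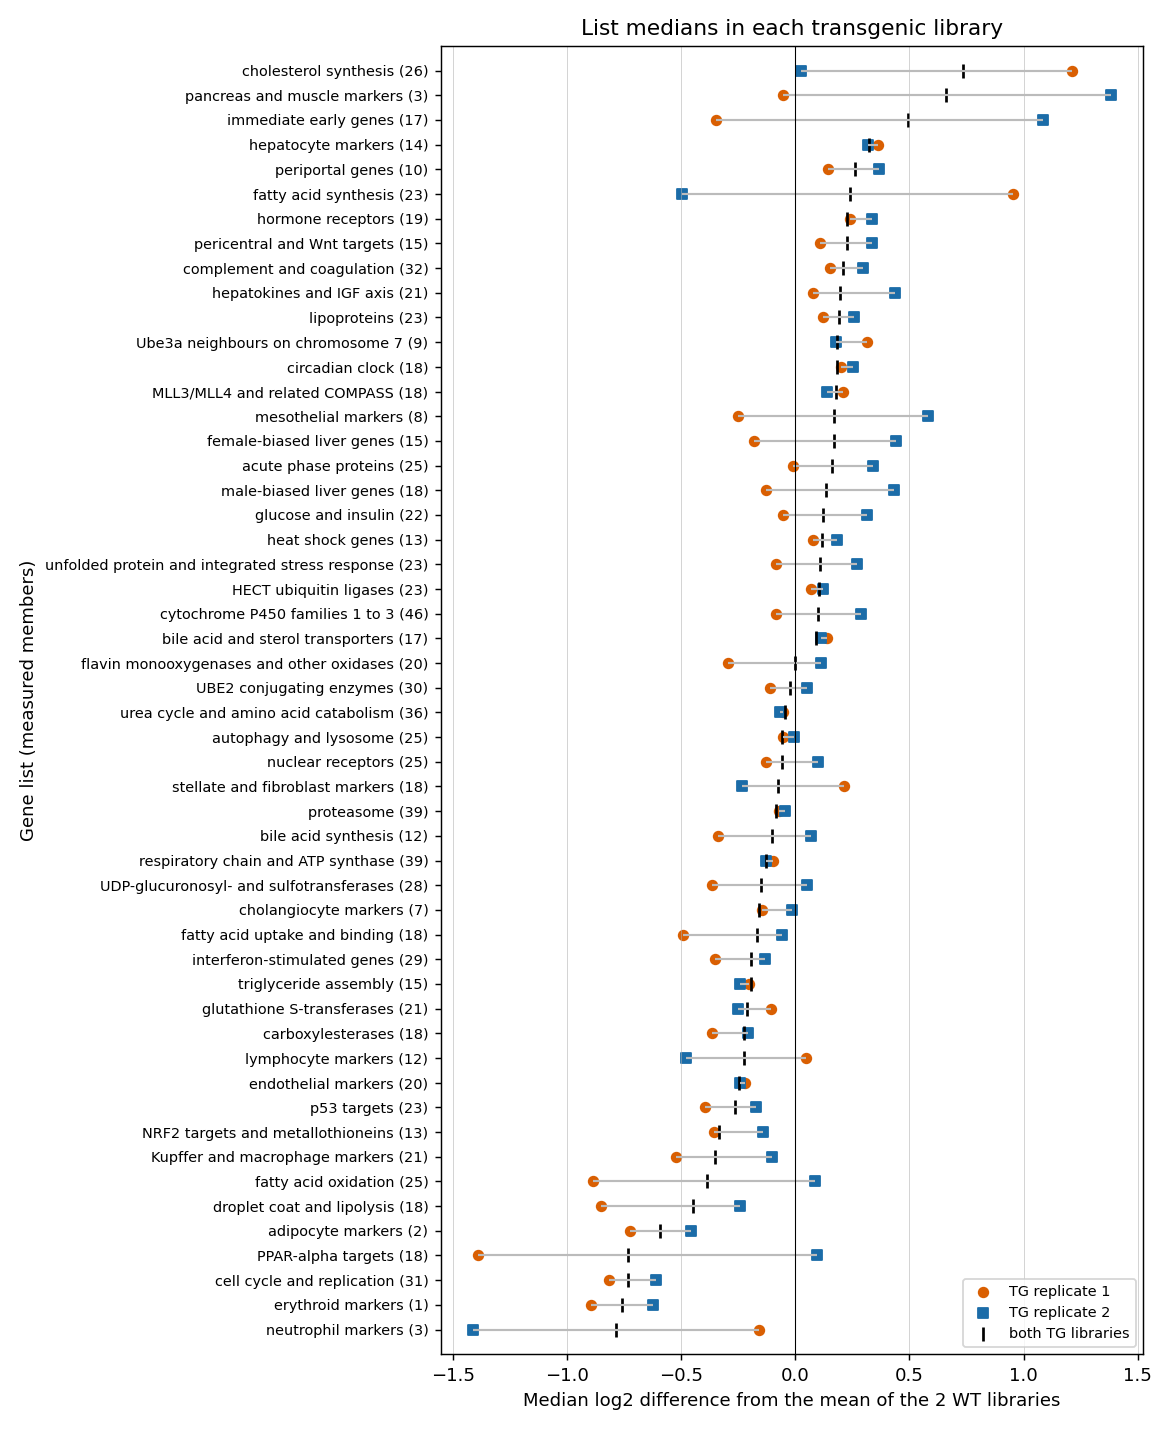
Median log2 difference from the mean of the 2 WT libraries (horizontal axis) for each of the 52 gene lists, ordered by the median over both TG libraries (black tick); orange circles are TG replicate 1 and blue squares TG replicate 2. Cell cycle, droplet, endothelial and respiratory chain lists lie on 1 side of 0 in both libraries, while fatty acid synthesis and immediate early genes lie on opposite sides.

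Among enzymes of xenobiotic metabolism, carboxylesterases and glutathione transferases were mostly lower, with medians of −0.22 and −0.21. The cytochromes P450 had a median of 0.10, with −0.09 in TG replicate 1 and 0.29 in replicate 2. Of these P450 genes, 8 lay above and 7 below both WT libraries. Of 18 carboxylesterases, 13 were lower, 7 without overlap, and 3 were called: Ces2c, Ces2d-ps and Ces1g. Ces1g had 18778 and 14750.3 in WT and 9124 and 9841 in TG (DESeq2 adjusted p = 0.00572). The plasma esterase gene Ces1c was higher, with 196808 and 188389 in TG and 127588 and 144613 in WT. Of 21 glutathione transferases, 17 were lower and 7 did not overlap, with Gstm4 at 3865 and 2744 in WT and 2226 and 1938 in TG. Gsta3 had 73169 and 76659 in WT and 70135 and 82399 in TG, with overlap.

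Among other oxidases, directions differed by enzyme. The list of 20 had a median of 0.00, whose sign turned under 2 of 5 scalings. Aldh1a1, a retinaldehyde dehydrogenase, had 77095 and 78805 in WT and 22622 and 42624 in TG (log2 fold change −1.33, SE 0.34; DESeq2 adjusted p = 0.00854). Aox1, an aldehyde oxidase, had 3574 and 3394 in WT and 1659.6 and 1983 in TG (DESeq2 adjusted p = 0.000108), and Ephx1, the microsomal epoxide hydrolase, 26507 and 21089 in WT and 8354 and 14496 in TG (DESeq2 adjusted p = 0.044). Of 46 cytochromes P450 in families 1 to 3, Cyp2f2 was the member called, at 41157 and 49645 in WT and 25748 and 25859.7 in TG (DESeq2 adjusted p = 0.000998). The list of NRF2 targets and metallothioneins was lower in 10 of 13 cases, 5 without overlap. Srxn1, sulfiredoxin, had 2547 and 2496 in WT and 1478 and 1655 in TG (DESeq2 adjusted p = 0.00729).

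Genes of DNA replication were lower in both TG libraries. Of 31 measured genes of the cell cycle and replication list, 28 were lower, 21 without overlap, and the medians were −0.82 in TG replicate 1 and −0.61 in replicate 2. DESeq2 called Mcm2, Mcm3 and Mcm4, subunits of the helicase that licenses replication origins. Mcm2 had 411 and 302 in WT and 113 and 161 in TG (log2 fold change −1.38, SE 0.27; DESeq2 adjusted p = 0.00481). Mcm3 had 534 and 465 in WT and 267 and 210.3 in TG, and Mcm4 447 and 379 in WT and 187 and 194 in TG. The other helicase subunits followed in part. Mcm5 had 344 and 367 in WT and 96.5 and 203 in TG, Mcm6 712 and 509 in WT and 230.0 and 379.6 in TG, and Mcm7 611 and 587 in WT and 516 and 561 in TG. All 6 lay below WT without overlap, Mcm7 by the least (log2 fold change −0.15, SE 0.13).

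Helicase genes are known targets of E2F factors, so the 250 bases before the annotated start were taken for subunits that moved together, from RefSeq on GRCm38.p6. Mcm2 is shown for its size of difference, and Mcm5 and Mcm6 for the words they hold. Capitals mark the E2F-type words searched on both strands, TTTCCCGC, TTTGGCGC, TTTCGCGC and TTTGCCGC, some of which overlap each other. Of 32851 windows of this length before annotated starts, 611 (1.86%) held at least 1 word. Mcm2 lies on the minus strand at chr6:88898781-88899030, Mcm5 on the plus strand at chr8:75109259-75109508, and Mcm6 on the minus strand at chr1:128359706-128359955. All are written 5′ to 3′ on the strand of the gene.
Mcm2: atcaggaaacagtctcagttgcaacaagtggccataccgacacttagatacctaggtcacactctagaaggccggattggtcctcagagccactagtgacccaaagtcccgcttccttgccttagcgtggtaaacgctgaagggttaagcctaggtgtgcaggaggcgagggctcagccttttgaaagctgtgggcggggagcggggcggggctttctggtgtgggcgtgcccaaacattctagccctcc
Mcm5: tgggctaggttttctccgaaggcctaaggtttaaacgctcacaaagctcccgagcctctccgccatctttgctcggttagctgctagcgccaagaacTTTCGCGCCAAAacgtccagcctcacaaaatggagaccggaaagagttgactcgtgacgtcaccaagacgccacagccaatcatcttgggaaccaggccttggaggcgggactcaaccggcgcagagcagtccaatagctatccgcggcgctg
Mcm6: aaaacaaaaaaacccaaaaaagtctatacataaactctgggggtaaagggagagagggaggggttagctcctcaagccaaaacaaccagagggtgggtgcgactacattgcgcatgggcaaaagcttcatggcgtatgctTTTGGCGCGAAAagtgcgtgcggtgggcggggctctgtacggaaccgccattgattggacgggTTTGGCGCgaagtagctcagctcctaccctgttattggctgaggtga
Mcm5 and Mcm6 held such words and Mcm2 held none, although Mcm2 had the most negative log2 fold change of the 3. The window of Mcm3, which DESeq2 also called, held none either, and Mcm7, the subunit nearest to WT, held a word in 1 of its 2 windows. Among all measured cell cycle genes with a window, 6 of 24 held a word, against 389 (3.73%) of 10442 measured genes with a window. Those counts come from the list and the sequences, whichever way a gene moved in TG. A match is a description of the letters and no window for Mcm4 was at hand.

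Other replication genes were also lower, though at few reads. Cdc6 had 33 and 20.2 in WT and 8.77 and 5.01 in TG, and Gins2 57 and 43.4 in WT and 7.8 and 21 in TG, with no overlap in either. Cdt1, which loads the helicase, had 140 and 105 in WT and 60.4 and 58.1 in TG, and Uhrf1, which maintains DNA methylation, 86 and 89.9 in WT and 32.2 and 37.1 in TG. Mitotic genes were mostly lower, with Ccnb2, Cdk1, Top2a, Cdc20, Birc5, Aurkb and Plk1 below both WT libraries and Ccna2, Aurka and Mki67 overlapping. Top2a was at 186 and 96 in WT and 59.4 and 56.1 in TG and Mki67, the proliferation marker, at 196 and 93 in WT and 179 and 88.1 in TG. Rrm2 and Ccne2 lay above both WT libraries. Rrm2, a subunit of ribonucleotide reductase, had 121 and 122 in WT and 276 and 175 in TG. Pcna had 955 and 781 in WT and 1083 and 840.4 in TG, with overlap. Endothelial and Kupffer markers were lower in the same libraries, as given above, and their part in the cell cycle values was not tested.

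**Figure D5:**
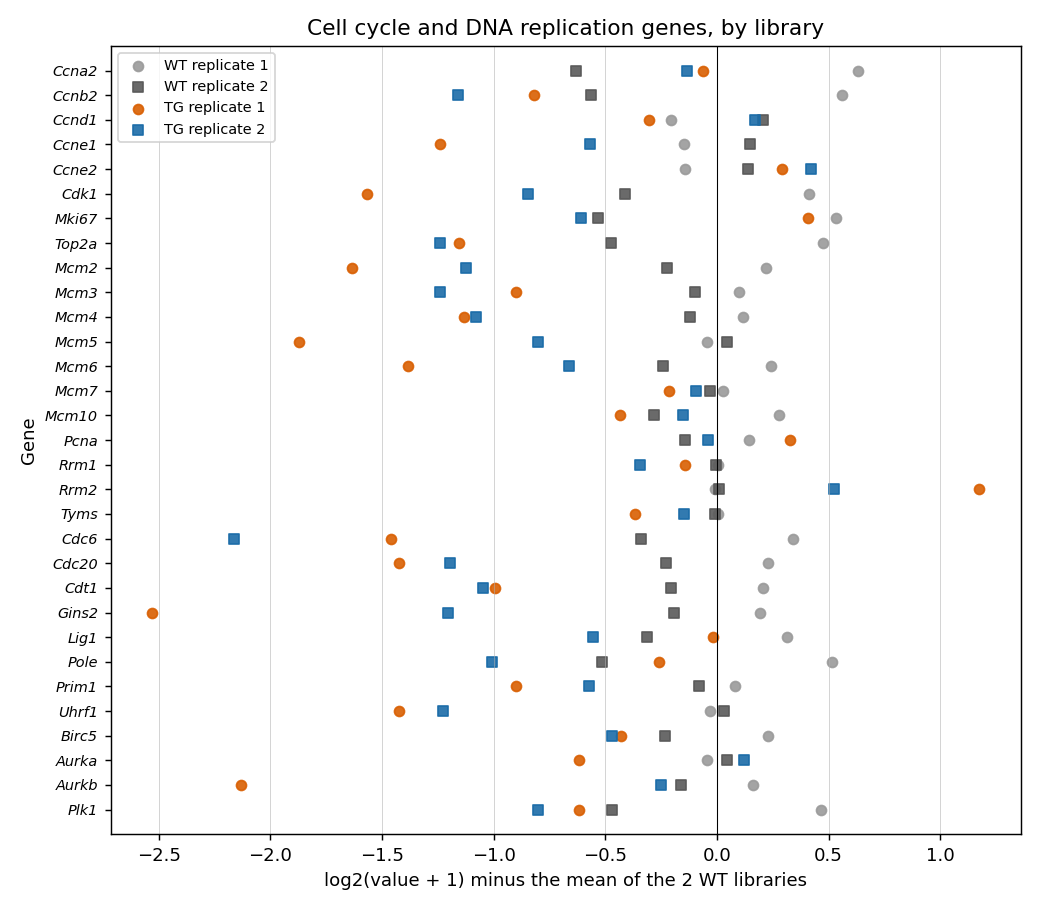
Log2(value + 1) of each library minus the mean of the 2 WT libraries (horizontal axis) for 31 cell cycle and replication genes; grey symbols are WT and coloured symbols TG. Mcm2 to Mcm6, Cdc6, Gins2 and Uhrf1 lie left of both WT libraries in both TG libraries, Rrm2 lies to the right, and Mki67 and Pcna overlap.

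Genes for secreted liver proteins leaned to the higher side. Of 32 complement and coagulation genes, 28 were higher and 19 lay above both WT libraries, against 3 below (median 0.21). C8b, a subunit of the membrane attack complex, had 720 and 1418 in WT and 2333 and 3235 in TG (log2 fold change 1.44, SE 0.38; DESeq2 adjusted p = 0.0151). C1ra, a protease of the first complement component, had 8026 and 8214 in WT and 11389 and 11743 in TG (DESeq2 adjusted p = 0.044). F11, coagulation factor XI, had 2128 and 1819 in WT and 2638 and 4061 in TG. C6, C8g and C9 were the members lower without overlap, with C9 at 11299 and 9677 in WT and 6249.6 and 9087 in TG. Hepatocyte markers moved the same way in these libraries, and their part was not tested.

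Acute phase genes split. Itih3, a heavy chain that binds hyaluronan, had 20547 and 17007 in WT and 32849 and 42437 in TG (DESeq2 adjusted p = 0.000928), and the 3 fibrinogen chains were higher without overlap, Fgg at 92652 and 80807 in WT and 117163 and 115191 in TG. Saa1, Saa2 and Saa4, which encode serum amyloid proteins, lay below both WT libraries, with Saa1 at 4468 and 2014 in WT and 1282 and 2011 in TG, where TG replicate 2 was just below WT replicate 2. Lipoprotein genes were higher in 17 of 23 cases, 11 without overlap. Apoa1, which forms the bulk of HDL protein, carried the largest difference, 103440 and 126986 in WT and 327626 and 314698 in TG (log2 fold change 1.49, SE 0.24; DESeq2 adjusted p = 2.44e-12). Apob, the protein of very low-density lipoprotein, had 239099 and 223193 in WT and 243153 and 281073 in TG, and Mttp, which loads it with lipid, 17788 and 15571 in WT and 18968 and 16798 in TG.

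Liver hormones and their binding proteins gave 4 calls, of which Enho and Lepr were described above. Igfbp2, an IGF-binding protein, had 11719 and 13709.5 in WT and 20725 and 27557 in TG (DESeq2 adjusted p = 0.00435). Inhbe, which encodes the hepatokine activin E, was lower, 2676 and 3218 in WT and 626 and 1510.5 in TG (log2 fold change −1.59, SE 0.46; DESeq2 adjusted p = 0.0259). Fgf21 had 80 and 111 in WT and 41.9 and 107 in TG, with overlap. In the list of hormone receptors, Avpr1a included, 16 of 19 were higher, 8 without overlap, with a median of 0.23 and Avpr1a as the call. Erbb3 had 4543 and 2792 in WT and 5386 and 5189.6 in TG, and the growth hormone receptor gene Ghr 22240 and 28064 in WT and 27947 and 27282 in TG.

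Bile acid synthesis held 1 call among 12 genes, and the transporters of bile acids and sterols 3 among 17. Cyp39a1, an oxysterol hydroxylase, had 642 and 1011 in WT and 1860.4 and 2877 in TG (log2 fold change 1.52, SE 0.31; DESeq2 adjusted p = 0.000708), whereas Cyp7a1, the rate-limiting enzyme of bile acid synthesis, overlapped at 12069 and 23278 in WT and 11344 and 17511 in TG. Slco1a4, an organic anion uptake carrier, had 5002 and 5805 in WT and 9085 and 9345 in TG (DESeq2 adjusted p = 0.00125). Slc10a2, the sodium-dependent bile acid transporter best known from ileum and bile ducts, was lower with 203 and 225 in TG and 375 and 409 in WT (DESeq2 adjusted p = 0.0249). Abcg2, an efflux pump, was lower as well, 1707 and 1887 in TG against 2593 and 2845 in WT (DESeq2 adjusted p = 0.0479).

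Ppargc1a, the coactivator PGC-1 alpha of gluconeogenic and mitochondrial genes, had 525 and 529 in WT and 905 and 947 in TG (log2 fold change 0.81, SE 0.12; DESeq2 adjusted p = 0.00203). Its gluconeogenic targets did not follow in both libraries. Pck1 had 125535 and 161615 in WT with 45345 and 229468 in TG, and G6pc 23239 and 27901 with 6643 and 29120.1. In the amino acid list DESeq2 called Tat, tyrosine aminotransferase, higher and Bhmt lower. Bhmt, which remethylates homocysteine with betaine, had 45679 and 64191 in WT and 27964 and 28005 in TG (DESeq2 adjusted p = 0.0027).

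Respiratory chain and ATP synthase genes showed small differences with little spread. Of 39 members, 35 were lower and 26 had both TG libraries below both WT libraries, with none above, a median of −0.13 and none called. The medians by library were −0.10 and −0.13. Cox6a1, a subunit of cytochrome oxidase, had 11497 and 11147 in WT and 8318 and 8907 in TG (log2 fold change −0.40, SE 0.14; limma adjusted p = 0.535). Atp5b, the catalytic subunit of ATP synthase, had 61074 and 57033 in WT and 52159 and 55551 in TG. Ndufv1, of complex I, had 9716 and 8909 in WT and 7739.7 and 7748 in TG. The list's median of −0.13 stayed negative under all 5 scalings fitted. These could hardly turn it, since their largest shift of the median of all genes was −0.03. Scaling to equal library totals, which was not fitted, shifted that median by −0.05.

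The lists of other HECT ligases, UBE2 enzymes and proteasome subunits held 1 call. Among 23 other HECT ligases the median was 0.10, with 10 above and 4 below both WT libraries and none called. Smurf2 had 2172 and 1940.0 in WT and 2266 and 3052 in TG. Of 30 UBE2 conjugating enzymes, Ube2c, which serves the anaphase-promoting complex in mitosis, was called lower, 82 and 46.5 in WT and 7.8 and 16 in TG (DESeq2 adjusted p = 0.0327). Of 39 proteasome genes, 32 were lower, 13 without overlap, with a median of only −0.08.

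Transcripts of MLL4 and its complex partners were measured as a group because the title names MLL4. Kmt2d, encoding MLL4, had 2647 and 2434 in WT and 3639.9 and 3070.1 in TG (log2 fold change 0.40, SE 0.14). Kdm6a, a histone demethylase of the same complex, had 835 and 795 in WT and 1193 and 1204 in TG (log2 fold change 0.56, SE 0.12; DESeq2 adjusted p = 0.0921). Both had higher values in each TG library than in either WT library. Among core subunits shared by COMPASS complexes, Wdr5, Ash2l and Dpy30 lay slightly below WT and Rbbp5 slightly above, with Wdr5 at 1733 and 1660.1 in WT and 1598 and 1538 in TG. Of 18 genes, 10 lay above and 5 below both WT libraries, and none was called. These are RNA levels and do not measure the MLL4 protein.

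Circadian genes were higher in 15 of 18 cases, 10 without overlap and none below (median 0.18). Rora, a nuclear receptor of the clock's second loop, had 2653 and 2730.2 in WT and 3933 and 3750.2 in TG (log2 fold change 0.51, SE 0.12; DESeq2 adjusted p = 0.0719). Per3 had 4575 and 3772 in WT and 8052 and 5291 in TG, and Nr1d2 5486 and 5926 in WT and 8108 and 7485 in TG. The core gene Clock overlapped, 1093 and 1009 in WT and 1073 and 1162 in TG. The hour of collection is not in the labels.

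Genes called by DESeq2 were denser on chromosome 9 than on any other chromosome. Of 738 measured genes there 26 were called (3.52%), 13 higher and 13 lower, against 1.23% over the other chromosomes, which ranged from 0.395% to 2.35%. Their starts ran from 20770050 to 106429454 on GRCm38. Of the 30 genes ranked first above, 10 lay on this chromosome, 5 on each side. Some were neighbours, as Aph1b and Aph1c were, and as Gsta1 (chromosome 9, 78230656 to 78242684, + strand), Gsta2 (chromosome 9, 78331018 to 78355788, − strand) and the gene model Gm3776 between them were. Gm3776 had 187 and 124 in WT and 18.5 and 13 in TG, and its reads may be shared with the Gsta genes. Col5a3, a collagen chain gene at the proximal end, had 838 and 743 in WT and 129.6 and 51.1 in TG (log2 fold change −3.26, SE 0.46; DESeq2 adjusted p = 3.63e-10). Apoa1, on the same chromosome, lay among them at 46228580. Chromosome 7, which carries Ube3a, had 4 of 1012 genes called (0.395%). The insertion site of the transgene is not given in the labels.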

How the data were processed

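Per the labels' protocols, RNA was taken with TRIzol and TruSeq libraries were built. Subread 1.5.2, featureCounts, DESeq2 and the builds mm10 and GRCm38 appear in the submitters' processing notes, without annotation or strand (not given in the sources used here). Each signal value deposited by the authors is a gene's reads over 1 factor per library, since recovered reads were whole within 0.001 for 100% of genes. The lowest mean in the table was 11.2. Spreadsheet dates replaced 20 names, 4 of them sharing a name; these were tested but not named. Positions came from GENCODE M21 by symbol (96.1% of genes).

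Values were taken to log2(value + 1), which understates fold changes of low genes. Genes were tested with limma 3.58.1 (trend and robust) in R 4.3.3 with Benjamini-Hochberg adjusted p under 0.05. Alternatives were edgeR 4.0.16, DESeq2 1.42.0 and limma-voom on recovered reads, pseudocounts of 0.5 and 5, mean CPM of at least 1 or 5, TMM scaling, library size without the 20 most abundant genes, no robust estimate, a replicate block, and fits without each library in turn. The values are reads over 1 factor per library, so levels of different genes are not corrected for length. Scripts were tested on simulated data with 200 changed genes.

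Named genes were Ube3a and its overlapping transcript, the 15 higher and 15 lower genes of smallest limma p (mean of at least 100, log2 fold change of at least 1 in size, no overlap, no gene models), the 6 genes of mean of at least 1000 whose TG libraries differed most, called genes of chromosome 9, and members of 52 gene lists. The comparison, lists and rules were chosen with earlier results of these data known. A list is described by its counts and median beside those of all genes, with no test of the list. The values of a few genes are not reported here.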

Additional observations from a re-analysis of the deposited data

How the results depend on the processing

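The number of genes called by limma was 0 under every alternative except DESeq2, which called 186, and leaving out a library, where it ran from 0 to 146 (0 without either WT library, 6 without TG replicate 1 and 146 without TG replicate 2). With a library left out, a group of 1 is assumed to vary like the other. Without a library, genes at an unadjusted p under 0.05 ran from 370 to 1129 higher and from 219 to 1130 lower. The scaling without the 20 most abundant genes gave 438 higher. Genes called by DESeq2 ran from 44 to 258 higher and from 26 to 287 lower when a library was left out, fits added after the data were seen. The log2 fold change of Ube3a was 2.23 with DESeq2, where it was called, and 2.13 to 2.33 on leaving out a library, with a limma call (adjusted p = 0.0242) only without TG replicate 2. None of the 443 values of the 30 top-ranked genes changed sign. Their choice without overlap fixed this for the fits that leave out a library. Their log2 fold changes of at least 1 in size left little room for it under the other settings. Of the 86 genes followed, 5 changed sign, all among those whose TG libraries differ most. The groups overlapped in each of these 5. Called genes had no overlap, so leaving out a library could not turn their sign. On leaving out a library, Chrna4 ran from −1.08 to 7.11, Cyp2c39 from −2.28 to 2.77, Egr1 from −3.11 to 2.74, Pnpla3 from −1.70 to 3.42 and Serpina3c from −4.00 to 4.66. Egr1, at −0.18, was 1.75 with edgeR and 1.76 with DESeq2. Of the 52 list medians, 22 changed sign on leaving out a library and 4 under other settings; no neutrophil marker has a mean CPM of at least 5, so that median has no value there. With the replicate block, limma called 0 genes and gave 767 higher and 600 lower at an unadjusted p under 0.05, and Ube3a 2.23; same-numbered libraries deviated together only weakly (r = 0.14 across 10979 genes, which are not replicates) and no label pairs them. The shallowest library held 44193275 reads, and 2 libraries a group limit these comparisons.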

Other observations

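Of the p53 target genes DESeq2 called Cdkn1a, which encodes the cell cycle inhibitor p21. Cdkn1a had 193 and 184 in WT and 36.1 and 70.1 in TG (log2 fold change −1.88, SE 0.36; DESeq2 adjusted p = 0.00309), and was called in 1 of the 4 DESeq2 fits that leave out a library. Of 23 listed genes 7 (30.4%) lay below and 2 above both WT libraries, with a median of −0.26. Over all genes 21.6% lay below. With libraries scaled to equal totals, 7 of the 23 and 3878 of all 13774 genes lay below. Mdm2, another p53 target, had 1214 and 1315 in WT and 1319.5 and 1478 in TG, and Trp53 itself 634 and 627 in WT and 831 and 559 in TG. Interferon-stimulated genes were lower in 25 of 29 cases, 11 without overlap, with none called and medians of −0.35 in TG replicate 1 and −0.13 in replicate 2. Kupffer markers had the same order of the libraries, and their part was not tested.

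Zonation and sex-biased genes gave a few single differences. Of 10 periportal genes 6 lay above and 2 below both WT libraries, and of 15 pericentral and Wnt targets 5 and 1. Over all genes 21.8% lay above and 21.6% below. Cdh1, the periportal cadherin, had 94 and 188 in WT and 687 and 660.1 in TG (log2 fold change 2.33, SE 0.35; DESeq2 adjusted p = 3.77e-07) and was called in all 4 fits without a library. Cux2, a female-biased transcription factor gene of mouse liver, had 1644 and 739 in WT and 2972 and 4196 in TG (DESeq2 adjusted p = 0.00757), and Hsd3b5, a male-biased one, 25 and 23.2 in WT and 92.6 and 99.2 in TG (DESeq2 adjusted p = 0.00168). The 15 female-biased genes had a median of 0.17, whose sign turned under 2 of 5 scalings. By library it was −0.18 in TG replicate 1 and 0.44 in replicate 2. Of these genes 4 lay above and 1 below both WT libraries, and of 18 measured male-biased genes 3 lay above and 3 below. Other genes, chosen after their values were seen, were Adrb3, the adrenergic receptor of fat cells, at 42 and 50.5 in WT and 952 and 343 in TG, Nnmt, nicotinamide methyltransferase, at 5957 and 7774 in WT and 838 and 1749.9 in TG, and Socs2, a target of growth hormone, at 654 and 776 in WT and 1504 and 2688 in TG. All 3 were called by DESeq2, with adjusted p-values of 7.75e-11, 2.34e-08 and 0.000318.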
